A study of Rattus norvegicus with 74 samples.

Results

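The 2 arms of rat miR-139 were followed across the life span of the F344 rat kidney. The members, rno-miR-139-5p and rno-miR-139-3p (miR-139-5p and miR-139-3p below), were selected by name from the 677 rat miRNAs on the array, of which 311 were detected on at least 1 array. They were chosen with their levels, and the ratio of the 2 arms on each of the 74 arrays over 8 ages and both sexes, already in view. These levels, the sex and age differences and the ratio are therefore given as a description without p-values.

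Whole kidneys of untreated Fischer 344 rats were profiled in females and males. The youngest rats were 2 weeks old, the next ages were 5, 6 and 8 weeks, young adults were 15 and 21 weeks old, and the oldest rats 78 and 104 weeks. Each of the 16 groups held 4 or 5 independent animals, with 1 array of total RNA per animal. All animals were of 1 inbred strain, females were not matched for estrous cycle, and whole tissue mixes tubules, glomeruli, vessels and blood. Fewer cells of a type and less RNA per cell cannot be told apart in such tissue.

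A miRNA is cut from a hairpin precursor, and each side of the stem can give a mature strand: the 5p arm from the 5′ side and the 3p arm from the 3′ side. A strand loaded into an Argonaute protein represses mRNAs that match its seed, bases 2 to 8. Because both arms come from the same hairpin, their amounts depend on shared transcription and on the stability and loading of each strand. The miR-139 gene lies within the phosphodiesterase gene Pde2a, whose enzyme degrades cyclic nucleotides, and miR-139-5p is known as a growth-restraining miRNA that is low in many tumors, renal carcinoma among them.

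The sequences are shown because each arm is read by its own probes and carries its own seed. In RefSeq (GRCr8) the hairpin of 68 bases lay at chr1:165290859-165290926 on the plus strand, inside the span of Pde2a at chr1:165235623-165327466. The gene table used here gives the span only, with no exon or intron boundaries. Capitals mark the 2 mature arms in the hairpin and the seed in each mature sequence.
mir-139 hairpin: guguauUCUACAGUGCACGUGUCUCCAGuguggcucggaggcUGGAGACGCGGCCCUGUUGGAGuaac
miR-139-5p: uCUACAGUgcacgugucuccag
miR-139-3p: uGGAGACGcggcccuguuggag

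Both arms are 22 bases long, and in the predicted fold of the hairpin 19 bases of the 5p arm pair with bases of the 3p arm. The mature 5p arm spans chr1:165290865-165290886 and the 3p arm chr1:165290901-165290922. Neither seed occurs in another of the 693 mature rat miRNAs listed by RefSeq, so each arm stands alone in its seed group. The 3p arm is rich in G and C, with 15 of its 22 bases (68.2%), against 12 (54.5%) in the 5p arm. Among the 282 expressed miRNAs with a listed sequence, 6 had a higher G and C content than the 3p arm and 57 a higher one than the 5p arm.

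Levels are the scanner's total signal of a miRNA divided by the 75th percentile of the 311 expressed miRNAs on the same array, called the normalized level. A level of 1 equals that percentile. A difference between groups was called where the p-value of limma, adjusted over 311 miRNAs, was under 0.05 and the fold at least 1.5. Both arms were detected on 74 of 74 arrays. Before scaling, the total signal ran from 6.35 to 42.9 units for the 5p arm, with a median of 18.6, and from 32.7 to 1175 units for the 3p arm, with a median of 348.5. The error that the scanner software attached to these totals had a median of 11.8% for the 5p arm and 9.08% for the 3p arm. The 2 arms are read by different probes, so the size of their ratio does not give their relative abundance, and only changes of the ratio between arrays are compared.

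The arrays sit on 10 slides, each with 4 columns and 2 rows, and the column of an array accompanied the level of the 3p arm throughout. At 21 and 104 weeks the females were all in column 3 and the males all in column 4. Column 4 held 19 arrays, 15 of 38 males and 4 of 36 females. The 21- and 104-week males were the 2 groups wholly in column 4, 5 groups had arrays both in column 4 and elsewhere, and 9 groups had none there. Column is therefore given for the groups of the 3p arm that hold arrays of column 4.

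miR-139-3p was lower in males than in females at 21 and 104 weeks. At 21 weeks the females had normalized levels of 2.08, 3.26, 2.84 and 2.03. The males had 0.468, 0.352, 0.702, 0.400 and 0.633. The groups did not overlap, with all females in column 3 and all males in column 4. The log2 difference, male minus female, was −2.34 (SE 0.61), a 5.07-fold lower level. It was 1 of 8 miRNAs called lower in males at this age (2.57% of those tested), or of 15 called in either direction (4.82%).

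At 104 weeks the females had 3p levels of 3.96, 1.57, 2.26, 2.74 and 2.75 in column 3. The males had 0.347, 0.539, 0.849 and 0.784 in column 4. Again the groups did not overlap. The log2 difference was −2.09 (SE 0.61), 4.27-fold lower in males, and 9 miRNAs were called lower in males (2.89%) and 19 in either direction (6.11%). Since the rule used these contrasts, nothing is read from the calls.

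At the other ages no sex difference of the 3p arm was called, and the groups overlapped at each of them. At 8 weeks the males had 0.570, 0.572 and 0.501 in column 4 and 2.28 in column 1, while the females had 4.23, 3.67, 2.23 and 3.55 in columns 2 and 3. The single male of column 1 lay within the range of the females and the other 3 males below it. The log2 difference was −2.09 (SE 0.64), at an age where 1.29% of miRNAs were called. At 5 weeks the males had 0.659, 0.646 and 0.436 in column 4 against 2.97 in column 1 and 2.69 in column 3, and the females had 2.80, 1.84, 3.47 and 3.27. Here too the low males were those of column 4, and 0% of miRNAs were called.

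In the females the same split was seen at 2, 6 and 15 weeks. At 2 weeks the female of column 4 had a 3p level of 0.393 and the 3 females of column 1 had 2.21, 3.03 and 2.22. At 6 weeks the females of column 4 had 0.501 and 0.733 and those of column 1 had 3.61, 2.56 and 7.51. At 15 weeks the female of column 4 had 0.419 and those of column 1 had 7.27, 2.36, 3.25 and 2.50. In each of these groups the arrays of column 4 lay below all the others of the same age and sex.

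No array of the remaining groups was in column 4, and none of them had a low level. The 2-week males had 2.67, 1.72, 1.55, 2.26 and 5.05, and the 6-week males 3.27, 2.84, 2.87, 3.37 and 5.21. The 15-week males had 1.497, 2.23, 7.32, 3.11 and 1.83. Each of these 3 groups had 1 array well above the others. The 78-week females had 4.48, 2.02, 2.41, 2.91 and 9.54, and the 78-week males 1.83, 3.33, 2.05, 1.88 and 4.22. Sex differences were called for 3.86% of miRNAs at 2 weeks, 0.322% at 6, 3.54% at 15 and 6.75% at 78 weeks, neither arm among them.

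**Figure D1:**
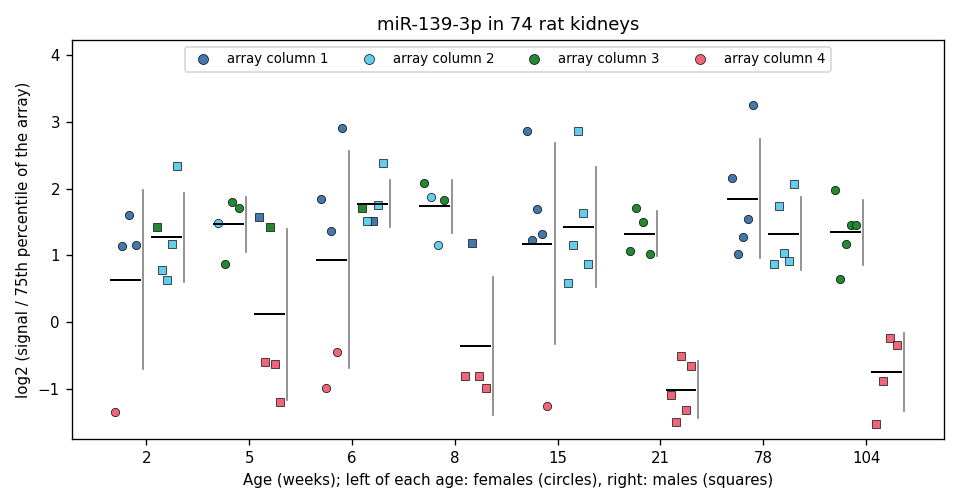
Log2 normalized level of miR-139-3p on each of 74 arrays by age and sex (circles, females; squares, males), colored by the array's column on its slide. Black bars are group means and grey lines 1 SD to each side. Every array of column 4 lies below every array of columns 1 to 3, and the 21- and 104-week males are all in column 4.

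Over all 74 arrays the 3p arm separated by column with no overlap. The 19 arrays of column 4 ran from 0.347 to 0.849 with a median of 0.539. The 55 arrays of columns 1 to 3 ran from 1.497 to 9.54 with a median of 2.80. Among the 311 expressed miRNAs, miR-139-3p was the 1 for which column 4 and the other columns did not overlap. Column alone accounted for 80.5% of the variance of its log2 level and slide alone for 6.83%. Group (age and sex together) accounted for 53.6%, and group with column for 82.9%.

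Within columns the sexes were close. In column 4 the 4 females ran from 0.393 to 0.733 and the 15 males from 0.347 to 0.849. In columns 1 to 3 the 32 females ran from 1.57 to 9.54 with a median of 2.82, and the 23 males from 1.497 to 7.32 with a median of 2.69. The ranges of females and males thus overlapped in both sets of columns. Column 4 held arrays of 7 ages. The single arrays of 2 and 15 weeks had 0.393 and 0.419, and the 2 arrays of 6 weeks a mean of 0.617. The other means were 0.580 ± 0.125 (SD, n = 3) at 5 weeks, 0.548 ± 0.0402 (n = 3) at 8 weeks, 0.511 ± 0.151 (n = 5) at 21 weeks and 0.630 ± 0.231 (n = 4) at 104 weeks. Over these 7 ages the values ran from 0.393 at 2 weeks to 0.630 at 104 weeks, where the SD was 0.231.

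Kidneys of both sexes and 1 age shared a slide in several cases, which holds the slide constant. In all 13 such pairs with the male in column 4 and the female elsewhere, the female had the higher 3p level, by 2.66 to 7.40-fold (median 5.05). In all 3 pairs with the female in column 4 and the male elsewhere, the male was higher, and the female over male ratio ran from 0.147 to 0.224. In the 17 pairs with neither in column 4, the female was higher in 11, and the ratio ran from 0.599 to 2.45 with a median of 1.37. The direction of the difference followed the column in each pair that involved column 4.

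The comparison of column 4 with columns 1 to 3 within groups rests on the 23 arrays of the 5 groups that hold both. It was added after the values had been seen, and column was not part of the rule that chose the arms. miR-139-3p was lower in column 4 by 2.56 on the log2 scale (SE 0.26, 5.90-fold), the largest decrease of the 311 miRNAs. In those 5 groups the ratio of the mean outside column 4 to the mean in column 4 was 6.32, 4.87, 7.39, 4.16 and 9.18 at 2, 5, 6, 8 and 15 weeks. miR-139-5p differed by 0.25 (SE 0.21) in the other direction and was not called. In all, 24 miRNAs were called for column 4 (7.72%), of which 22 were lower there (7.07%), and the median difference of all 311 was −0.00. The count of 24 was 15 without replicate 3 of the 2-week females, and 2 with normexp background correction.

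**Figure D2:**
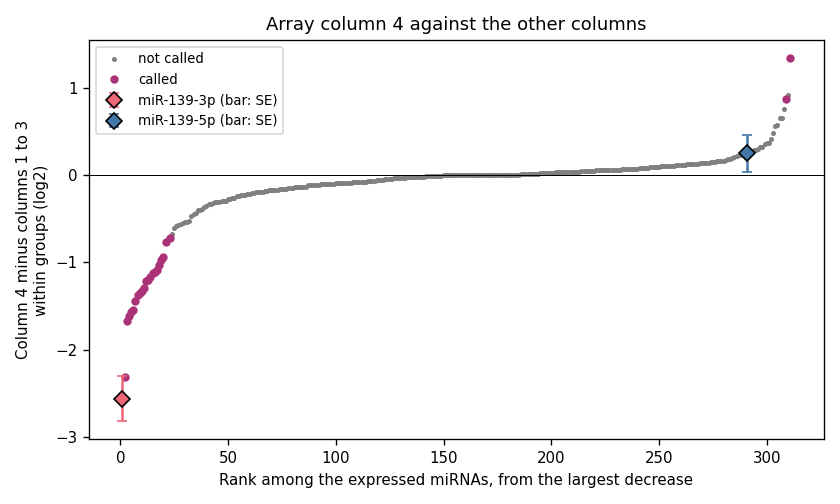
Log2 difference of column 4 minus columns 1 to 3 within groups for 311 expressed miRNAs, ordered from the largest decrease. Diamonds mark the arms of miR-139 with their SE, and colored points the 24 called miRNAs. miR-139-3p stands at the lower end at −2.56 and miR-139-5p slightly above 0 at 0.25.

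With column as a term in the fit, the log2 sex differences of the 3p arm lay between −0.50 and 0.51 over the 8 ages and none was called. The log2 difference was 0.26 at 21 weeks (95% interval −0.98 to 1.51) and 0.51 at 104 weeks (−0.73 to 1.75). At 8 weeks it was −0.16 (−1.39 to 1.06) and at 5 weeks 0.20 (−0.86 to 1.26). The intervals at 21 and 104 weeks are wide, with an SE of 0.62 at both ages, against 0.61 in the fit without column. Both fits use the same arrays, so the intervals do not test one fit against the other. At these ages each sex lies in a column of its own, so the column term is estimated from other ages. With column in the fit, 2.25% of miRNAs were called at 21 weeks and 4.18% at 104 weeks. Over the 8 ages, 54 miRNAs (17.4%) were called at 1 or more ages without column and 29 (9.32%) with it. The SE of the 5p sex difference at 21 weeks was 0.31 without column and 0.50 with it. The part of lost precision in the lower count was not tested. Without the arrays of column 4, a sex difference could be formed at 6 ages, and that of the 3p arm ran from −0.55 at 8 weeks, with 1 male left, to 0.03 at 5 weeks.

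Females and males of 1 age in the same column were found at 5 and 6 weeks. In column 3 at 5 weeks the male had a 3p level of 2.69 and the females 1.84, 3.47 and 3.27. In column 1 at 6 weeks the male had 2.87 and the females 3.61, 2.56 and 7.51. Both males lay within the range of the females.

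With age, the 3p arm was called in males but not in females, and the 5p arm in neither. In males the 104-week level was below the 2-week level by −2.02 on the log2 scale, and 45.3% of miRNAs were called for age. In females the change was 0.71, and 36.7% were called. The 2-week females include 1 array of column 4, with a normalized level of 0.393. Without it their mean was 2.48 ± 0.471 (SD, n = 3), against 2.65 ± 0.876 (n = 5) at 104 weeks. With column in the fit the 3p arm was no longer called in males, the 104-week minus 2-week difference was 0.33, and 43.7% of all miRNAs were called. That fit could not be made in females, whose ages fell into separate sets of columns. The females of 2, 6, 15 and 78 weeks were in column 1 or 4. Those of 5, 8, 21 and 104 weeks were in column 2 or 3. Age and column cannot be told apart between these sets. Slide also went with age in both sexes. The kidneys of 2, 5, 6 and 8 weeks were on odd-numbered slides. Those of 15, 21, 78 and 104 weeks were on even-numbered slides, apart from 1 female of 15 weeks. Between the younger and older ages, slide and age thus cannot be told apart in males for either arm. In females only that 1 array links them.

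By group mean, the order of 3p levels began with the 78-week females at 4.27 ± 3.09 and ended with the 21-week males at 0.511 ± 0.151. Neighbors in this order differed by less than the smaller of their SDs with 1 exception. The 8-week males, at 0.981 ± 0.867, were followed by the 104-week males at 0.630 ± 0.231, a gap of 0.351. The lowest 4 places belonged to 21-, 104-, 8- and 5-week males, the male groups with arrays in column 4. Without column 4, the means by age ran from 2.55 at 21 weeks, where only the 4 females remain, to 3.91 at 6 weeks, with SDs of 0.570 to 2.34. At 104 weeks too, only females remain without column 4.

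miR-139-5p, the arm best known for restraining growth, showed no called difference between the sexes at any age, and the groups overlapped at all 8 ages. At 21 weeks the females had normalized levels of 0.0939, 0.117, 0.120 and 0.127. The males had 0.138, 0.0987, 0.129, 0.154 and 0.127. The log2 difference, male minus female, was 0.17 (SE 0.31). At 104 weeks the females had 0.121, 0.129, 0.146, 0.123 and 0.0952, and the males 0.0811, 0.109, 0.119 and 0.227. The difference was 0.03 (SE 0.31), with the highest male above all females and the lowest below.

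Before adulthood the 5p levels of females and males overlapped at 2, 5, 6 and 8 weeks. The 2-week females had 0.194, 0.0899, 0.0617 and 0.146, and the 2-week males 0.143, 0.111, 0.0963, 0.134 and 0.0849. The 5-week females had 0.186, 0.102, 0.130 and 0.186, and the 5-week males 0.181, 0.118, 0.114, 0.161 and 0.106. The males lay within the range of the females at both ages. The 6-week females had 0.0938, 0.125, 0.283, 0.180 and 0.0623, and the 6-week males 0.155, 0.129, 0.0980, 0.134 and 0.0937. The 8-week females had 0.113, 0.161, 0.116 and 0.134, and the 8-week males 0.148, 0.159, 0.126 and 0.112. The 6-week females held the highest 5p level of all arrays, 0.283, and a level as low as 0.0623.

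At 15 weeks the 5p levels were 0.0524, 0.0875, 0.107, 0.112 and 0.124 in females and 0.0978, 0.121, 0.102, 0.131 and 0.126 in males. At 78 weeks they were 0.152, 0.0989, 0.110, 0.164 and 0.0515 in females and 0.1003, 0.122, 0.0977, 0.108 and 0.0494 in males. The log2 sex difference was largest at 15 weeks, 0.31 (SE 0.29), and lowest at 78 weeks, −0.23 (SE 0.29). By group mean the order began with the 5-week females at 0.151 ± 0.0420 and ended with the 78-week males at 0.0954 ± 0.0275. Each of the 15 neighboring pairs in this order differed by less than the smaller of the SDs.

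**Figure D3:**
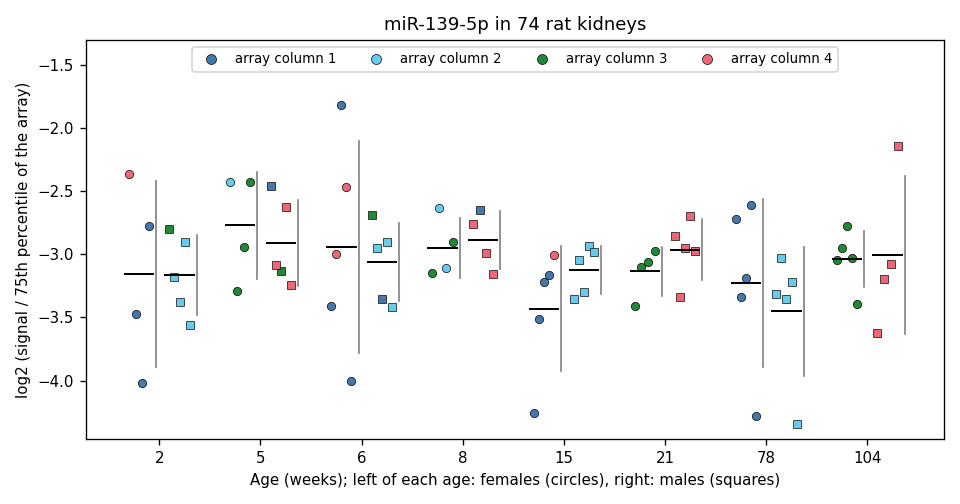
Log2 normalized level of miR-139-5p on each of 74 arrays by age and sex (circles, females; squares, males), colored by array column. Black bars are group means and grey lines 1 SD to each side. Females and males overlap at every age, and the arrays of column 4 lie among the others.

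The 5p arm varied with the slide rather than the column. Slide accounted for 48.1% of the variance of its log2 level, column for 7.84% and group for 16.6%. The arrays of column 4 ran from 0.0811 to 0.227 and those of columns 1 to 3 from 0.0494 to 0.283. Median levels by slide ran from 0.0937 on slide 9 to 0.171 on slide 1. Each slide carried both sexes, and the sex differences of this arm moved little with slide in the fit, to between −0.23 at 78 weeks and 0.39 at 15 weeks. The younger and the older ages lay on different slides, apart from 1 female of 15 weeks. The share of variance given for slide therefore includes any difference between these ages.

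In columns 1 and 2 of slides 9 and 10 the 5p arm was low and the 3p arm high. The 8 arrays of columns 1 and 2 on these slides had 5p levels of 0.0494 to 0.102 (median 0.0620) and 3p levels of 3.03 to 9.54 (median 6.24). On the other slides the 30 arrays of columns 1 and 2 had medians of 0.118 for the 5p arm and 2.38 for the 3p arm. The 3 arrays of column 3 on slides 9 and 10 had 5p levels of 0.0939 to 0.102 and 3p levels of 1.84 to 2.75. The 4 arrays of column 4 there had 5p levels of 0.106 to 0.227 (median 0.120) and 3p levels with a median of 0.567, within the range of column 4 on the other slides for the 3p arm. This contrast was found after the values had been seen, and its source was not tested.

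The log2 ratio of the 5p to the 3p arm spanned −7.53 to −1.02 over the 74 arrays, and column accounted for 71.0% of its variance. In 21-week males it was −1.76, −1.84, −2.44, −1.37 and −2.32, and in 21-week females −4.47, −4.80, −4.57 and −4.00. In 104-week males it was −2.10, −2.31, −2.84 and −1.79, and in 104-week females −5.03, −3.60, −3.95, −4.48 and −4.85. Females and males did not overlap at either age, nor at 8 weeks. The ratio was in view when the pair was chosen, so nothing is read from this separation. The ratio ran from −2.84 to −1.02 in column 4 and from −7.53 to −3.18 in the other columns, so that it separated by column as the 3p arm did.

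The 8 arrays of columns 1 and 2 on slides 9 and 10 had ratios of −7.53 to −5.62, below all 66 other arrays, the lowest of which was −5.27. The male minus female difference of the ratio was 2.51 (SE 0.77) at 21 weeks and 2.12 (SE 0.77) at 104 weeks. From the median of the spots in place of the total signal, these were 0.74 and 0.58. With column in the fit they were −0.21 (95% interval −2.05 to 1.63) and −0.60 (−2.44 to 1.24). Over the 74 arrays the log2 levels of the arms had Pearson's r of −0.29 and Spearman's rho of −0.16. Within column 4 r was 0.41 over 19 arrays, and within columns 1 to 3 it was −0.35 over 55 arrays. All arrays share the scaling to their own percentile, whose log2 value correlated with the 5p arm at −0.39 and the 3p arm at −0.23.

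**Figure D4:**
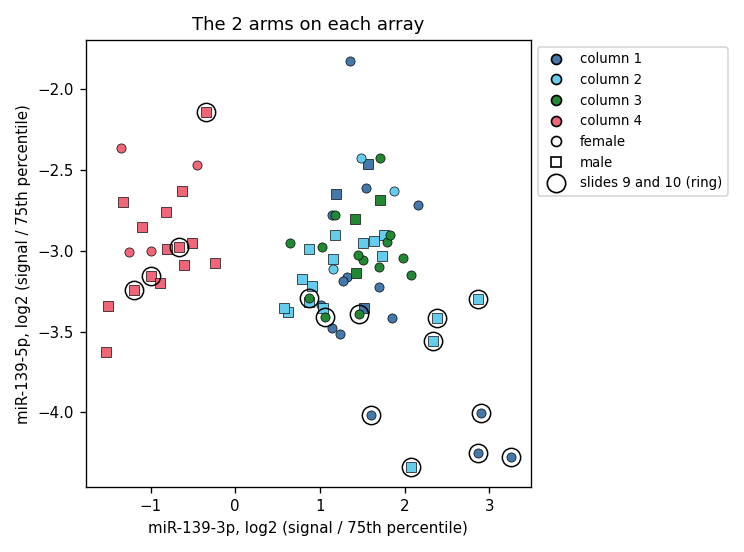
Log2 normalized level of miR-139-5p against that of miR-139-3p, 1 point per array (circles, females; squares, males), colored by array column, with rings around the arrays of slides 9 and 10. Column 4 forms a separate set at low 3p levels, and the 8 ringed arrays of columns 1 and 2 have low 5p and high 3p levels.

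Measured against other precursors, miR-139 had the most variable ratio of arms. The pair was chosen with this ratio in view, so its place is given as a description only. Both arms were on the array for 258 precursors and both were detected on at least 50% of arrays for 40. The group means of the log2 ratio spanned 3.13 for miR-139, from −5.07 to −1.94, the widest of the 40 (median 0.86). The lowest mean was that of the 78-week females, all in column 1. The highest was that of the 21-week males, all in column 4. The SD of the miR-139 ratio within groups, 1.14, was also the highest (median 0.30), as was the change of this ratio in column 4, 2.81 (median size 0.24). Next in range came miR-23a (2.70), miR-466b (1.79) and miR-652 (1.73). The ratio of miR-23a changed by −1.89 in column 4 and that of miR-652 by −0.10.

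The narrowest ranges were those of miR-324 (0.22), miR-10a (0.30) and miR-200b (0.40). The arms of miR-324 correlated at 0.82 over the arrays and those of miR-200b at 0.89, against a median of 0.35 for the 40 precursors and −0.29 for miR-139. A correlation below that of miR-139 was found for miR-23a alone, −0.32. The arms of a pair share arrays and their scaling.

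Each arm is read by 2 probes with 10 spots apiece, and the spots of the 3p probes differed greatly within an array. The 3p total was the sum of both probes on all 74 arrays. The 5p total was probe 2 alone on 66 arrays and both on 8, probe 1 being dim. Those 8 included the array with the highest 5p level, of a 6-week female, where probe 1 gave 5.63 of 37.1 units. Replicate 6 of the 104-week males was also among them, and there probe 1 gave 6.44 of 42.9 units. Probe 2 of the 3p arm had a median signal of 383.2, 302.2 and 365.2 units in columns 1, 2 and 3 and of 75.9 units in column 4. Probe 1 had 106.1 and 64.9 units in columns 1 and 2, but 21.2 in column 3 and 11.8 in column 4. The probes thus agreed that column 4 was low and disagreed on column 3. The share of probe 1 in the 3p signal ran from 3.67% to 29.2% over the arrays.

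Within a probe the same spots were bright across the arrays of a column, and other spots were bright in other columns. For probe 1 of the 3p arm, spot 2 had a median of 250.2 units in column 4 and 60.4 in column 2, while spot 8 had 16.2 in column 4 and 393.9 in column 2. For probe 2, spot 1 had 1347 units in column 3 and 108.0 in column 4, and spot 2 had 1887 units in column 2 and 208.6 in column 3. In column 4, 9 of the 10 spots of probe 2 and 7 of the 10 of probe 1 had their lowest median of the 4 columns. All these spots of a probe carry 1 design.

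The pattern of the 10 spots correlated between arrays of the same column at a median r of 0.98 for probe 1 and 0.99 for probe 2, and between arrays of different columns at −0.15 and −0.31. Column held 95.4% and 94.7% of the variance of the spot pattern. The median SD of log2 spot signals within an array was 0.91 and 0.84, places 2 and 4 among 349 probes with a median spot signal of at least 10 units (median 0.17). Spot patterns that went with the column were common on the array. Over these 349 probes the median r was 0.70 within columns and 0.02 between columns. The median share of the pattern's variance between columns was 36.3%. Probe 2 of the 5p arm had an SD of 0.20, place 122, with r of 0.48 within columns and 51.7% of the pattern's variance between columns. Spots of 1 array share a hybridization, so these values describe the printed positions and are no replicates of a kidney.

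**Figure D5:**
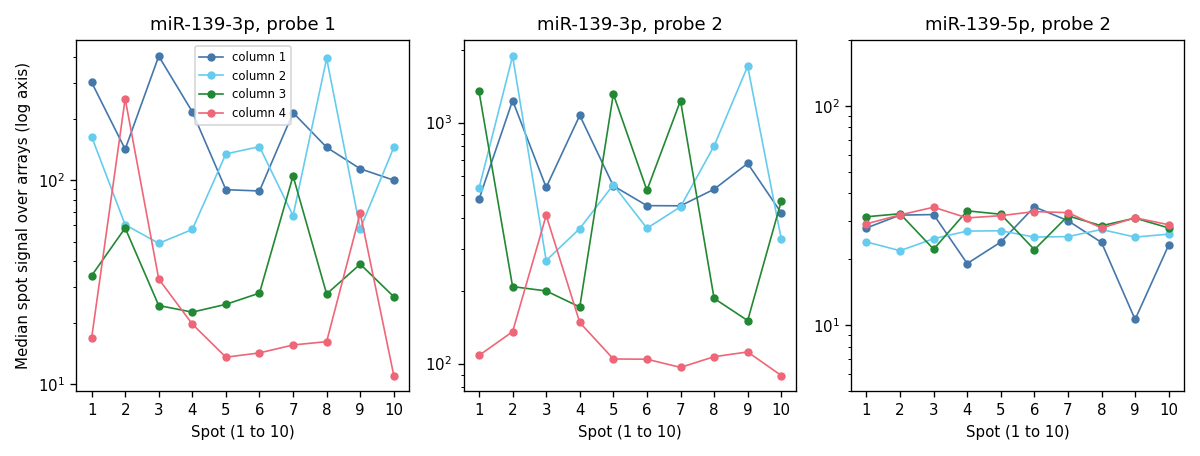
Median signal of each of 10 spots in the 4 array columns for both probes of miR-139-3p and the brighter probe of miR-139-5p (log axes with different ranges). For miR-139-3p the bright spots differ between columns and most spots of column 4 are low. For miR-139-5p the columns lie close together, apart from low spots in column 1 such as spot 9.

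The miRNAs most like the 3p arm over the 74 arrays were miR-743a-3p (Pearson's r 0.81), miR-202-3p (0.79) and miR-3562 (0.77), among 227 detected on at least 50% of arrays. Those 3 were also called lower in column 4, with log2 differences of −2.31, −1.67 and −1.30, at places 2, 3 and 11 of the decreases. The miRNAs most like the 5p arm were let-7d-3p (0.83), miR-326-3p (0.72) and miR-328a-3p (0.71), with column 4 differences of 0.13, 0.42 and 0.12. The 3p arm stood at place 202 of 227 in likeness to the 5p arm. For both probes of miR-202-3p the spot patterns were as uneven as for the 3p arm, with SDs of 1.01 and 0.91 at places 1 and 3. The arrays share slides, columns and scaling, so likeness over arrays includes all of these.

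The labelled tissue was checked against kidney miRNAs. All 9 listed (miR-192, miR-194, miR-204, miR-200a, miR-200b, miR-200c, miR-10a, miR-10b and miR-30a) were detected on 74 arrays, and their summed level had a median of 107.5 in column 4 and 105.8 elsewhere. None of them was called for column 4, nor were the markers of endothelium, leukocytes, red blood cells, striated muscle or liver. At 21 weeks the kidney sum ran from 115.6 to 125.9 in females and from 108.3 to 130.8 in males, which overlap. The sum of 4 leukocyte miRNAs did not overlap at that age, the females lying at 2.49 to 2.95 and the males at 3.07 to 3.70. Nor did the sum of the muscle list, at 0.0879 to 0.130 in females against 0.144 to 0.200 in males. Of its 4 miRNAs, miR-133b-3p was detected on 74 arrays, miR-206-3p on 17 and the others on 0. How many of all miRNAs separated the sexes at 21 or at 104 weeks was not counted. At 104 weeks the kidney sum ran from 108.8 to 124.6 in females and from 80.1 to 98.1 in males, while the leukocyte sum ran from 3.32 to 3.55 in females and from 5.56 to 7.67 in males. The liver miRNA ran from 0.293 to 0.672 in females and from 0.0148 to 0.175 in males at 104 weeks. The part of these markers in the 21- and 104-week differences of the 3p arm was not tested.

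Of the other lists, both endothelial arms of miR-126a were detected on 74 arrays, as were 3 of 4 leukocyte miRNAs. At 104 weeks the endothelial sum ran from 13.2 to 15.1 in females and from 11.7 to 13.6 in males. The red cell miRNA miR-451 was detected on 74 arrays and miR-144-3p on 5. The muscle miRNAs miR-1-3p and miR-133a-3p were detected on 0 arrays. The liver miRNA miR-122-5p was detected on 69 arrays with a median of 0.0906, and reached 23.6 in 1 male of 2 weeks in column 3, where the 3p level was 2.67 and the 5p level 0.143.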

How the data were processed

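Total RNA (100 ng) of whole kidney was hybridized to single-color Agilent rat miRNA arrays, and the authors deposited the output of Agilent Feature Extraction 10.7.3.1 per array: intensity of spots, background-subtracted by the software, and a total intensity per miRNA over its spots. Array depth cannot be counted; 190 to 264 miRNAs were detected per array, no miRNA spot was saturated, and replicate number limits the precision. The deposited value table was not used, since 5 of its 74 columns held the array they name.

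Totals were divided by each array's 75th percentile (81.2 to 283 units, median 156.4) over 311 miRNAs detected at least once, floored at 0.0171 and put on the log2 scale. Group means were fitted with limma 3.58.1 (R 4.3.3) over all groups for sex and within each sex for age, with Benjamini-Hochberg adjustment. The scripts were tested on simulated data. Slide and array column were read from the array position in the file headers; comparisons using column were added after seeing the data. Hairpin pairing came from RNAfold 2.7.2.

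The members, lists and tests were chosen with earlier results of these data known. Genes were named by rule: the 2 arms, the 3 miRNAs most correlated with each, the 3 precursors with the widest and narrowest ranges of arm ratio, marker lists and miRNAs sharing a seed. Same-numbered replicates of the sexes did not deviate together (mean r −0.05 over 28 pairs, 0.01 over 143 others), so samples were not paired. Of the listed markers, miR-486 was not matched by name.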

Additional observations from a re-analysis of the deposited data

Results flagged for a closer look

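Values were looked at in 16 groups for each arm and for the log2 ratio, 48 sets in all, and chance flags about 1 in 20 groups. In 2-week females, replicate 3 had a log2 3p level of −1.35 in column 4, and the others had 1.14 to 1.60 in column 1. In 8-week males, replicate 3 had a log2 3p level of 1.19 in column 1, and the others had −0.996 to −0.81 in column 4. The log2 ratio of that array was −3.84, against −2.19 to −1.95.

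The other arrays that stood apart were on slides 9 and 10 in columns 1 and 2. In 6-week males, replicate 6 had a log2 3p level of 2.38, against 1.51 to 1.75. The log2 ratio was −5.89 in 2-week male replicate 5 (others −4.22 to −3.96). It was −7.53 in 78-week female replicate 6 (others −4.88 to −4.15) and −6.42 in 78-week male replicate 6 (others −4.77 to −4.13). The last of these also had the lowest log2 5p level, −4.34, against −3.35 to −3.03 in its group.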

How the results depend on the processing

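With array column as a block, the log2 sex difference of the 3p arm turned positive at 21 weeks (0.26) and 104 weeks (0.51), and was 0.20, −0.18 and −0.16 at 5, 6 and 8 weeks. The log2 ratio differences became −0.39, 0.17, −0.21 and −0.60 at 5, 8, 21 and 104 weeks, and 83 sex calls of all miRNAs became 35, of which 27 were shared. With column and slide as blocks the 3p differences were 0.27, −0.16, −0.37, 0.35 and 0.39 at 5, 6, 8, 21 and 104 weeks, and 43 sex calls were made. Without column 4 the 3p differences were 0.032, −0.27 and −0.55 at 5, 6 and 8 weeks, and the ratio differences −0.059, 0.28 and 0.85. At the 6 ages left, 49 sex calls became 53.

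With normexp background correction and an offset of 50, the 3p sex differences were −1.10 at 8 and −1.37 at 21 weeks, the column 4 difference −1.60 and the ratio difference at 8 weeks 0.86. Under it 12 sex calls, 29 female and 71 male age calls and 2 column 4 calls were made, against 83, 114, 141 and 24. The methods' t-test gave 48 sex calls. The median of the spots gave ratio differences of 0.74 at 21 and 0.58 at 104 weeks. The cause was not tested.

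Floor, percentile and quantile alternatives, other filters, slide as a fixed or random block and undetected arms at the lowest signal changed no direction of a called value. Slide as a block gave 111 sex calls as a fixed and 103 as a random term, and could not be fitted for age in males. With a replicate block the 3p differences were −2.29 at 21 and −2.15 at 104 weeks, with 81 sex calls.

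Leaving out each array in turn gave these ranges. The log2 sex difference of the 3p arm was −0.03 to 0.95 at 2, −1.72 to −1.02 at 5, 0.36 to 1.33 at 6, −2.61 to −1.88 at 8, −0.36 to 0.67 at 15, −2.47 to −2.21 at 21, −0.73 to −0.17 at 78, −2.27 to −1.84 at 104 weeks. That of the 5p arm was −0.29 to 0.26 at 2, −0.31 to −0.02 at 5, −0.39 to 0.16 at 6, −0.02 to 0.17 at 8, 0.10 to 0.41 at 15, 0.08 to 0.27 at 21, −0.49 to −0.00 at 78, −0.26 to 0.23 at 104 weeks. That of the ratio was −1.25 to 0.29 at 2, 0.96 to 1.60 at 5, −1.72 to −0.49 at 6, 1.96 to 2.59 at 8, −0.57 to 0.77 at 15, 2.37 to 2.67 at 21, −0.32 to 0.71 at 78, 1.96 to 2.32 at 104 weeks. The column 4 difference was −2.66 to −2.46 for the 3p arm, 0.09 to 0.38 for the 5p arm and 2.60 to 3.01 for the ratio. Sex calls were 78 to 95, age calls 109 to 121 in females and 134 to 146 in males, and column 4 calls 15 to 26, the 15 without 2-week female replicate 3.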
